A study of Mus musculus with 22 samples.

Results

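NAD is both a redox carrier and a substrate. In the salvage route of the brain, Nampt joins nicotinamide to a ribose phosphate to make nicotinamide mononucleotide, and the Nmnat enzymes turn that mononucleotide into NAD. The sirtuins spend NAD to take acyl groups off proteins. SIRT1, SIRT6 and SIRT7 act in the nucleus, SIRT2 mainly in the cytosol, and SIRT3 and SIRT5 in mitochondria. SARM1 is an NAD-cleaving enzyme of axons, which is held in check as long as NMNAT2, a short-lived enzyme carried into axons, keeps making NAD. PARP enzymes also spend NAD, and the compound given here, ABT-888, inhibits them.

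The transcripts described are Sirt1, Sirt2, Sirt3, Sirt5, Sirt6, Sirt7, Nampt, Nmnat2, Nmnat3 and Sarm1. They are the 10 rows, of 39056 in the count table, whose Ensembl identifier maps to one of these symbols. That rule uses no measured value. Sirt4 and Nmnat1 are not among the 10 and appear below only within the lists of other NAD genes.

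RNA came from the prefrontal cortex of 11 male mice on a C57BL/6J background, 8 to 12 weeks old. All of them, controls included, were meant to express EGFP-Rpl10a, a tagged ribosomal protein, through the tetracycline transactivator under the CaMKIIα promoter, so that TRAP pulls down ribosomes of the neurons in which that promoter is active. Control mice received saline (n = 3), EtOH mice received ethanol at 2 g/kg per day (n = 4), and EtOH + ABT-888 mice received the same ethanol together with ABT-888 at 25 mg/kg on day 4 (n = 4). The treatment lasted 4 days with 2 injections per day, and tissue was taken 2 h after the last one. No group received ABT-888 without ethanol. Each mouse gave a TRAP library (ribosome-bound RNA after the pull-down) and a total-RNA library (the lysate before it), so that 22 libraries form 6 groups.

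Between 6570957 and 22002618 reads were counted in a TRAP library and between 22132534 and 32421392 in a total-RNA library. Levels are given as CPM, read counts scaled to library size with edgeR's TMM factors. A transcript was tested when it had at least 500 counts in total and was seen in at least 3 libraries, which 14072 genes and all 10 members met. A difference was called at an adjusted p-value under 0.05 by the quasi-likelihood test of edgeR, adjusted over the 14072 genes by the method of Benjamini and Hochberg. The sparsest member was Nmnat3, with 30 to 327 counts per library, and the densest was Nmnat2, with 1172 to 10883.

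The markers of the labelled cell type were read before the members. Camk2a, which the promoter of the transgene belongs to, had 1883 ± 149 CPM in Control_TRAP and 2092 ± 244 in Control_total-RNA (SD, n = 3 each), a log2 difference of -0.17 ± 0.11 (SE; adjusted p = 0.203), and it was not called in either treated group. Of 8 excitatory-neuron markers, 1 was higher and 6 were lower in TRAP in each of the 3 treatments. Their median log2 differences were -1.16 in Control, -1.85 in EtOH and -2.12 in EtOH + ABT-888. Their summed level was 4967 to 6279 CPM in Control_TRAP and 4432 to 5347 CPM in Control_total-RNA. Interneuron markers went both ways. Of 8, 3 were higher in TRAP in each treatment (Gad1, Gad2, Slc32a1), while 3 were lower in Control and 4 in each treated group, with median log2 differences of -0.53, -0.72 and -0.99. All 10 oligodendrocyte markers were lower in TRAP in every treatment, with a summed level of 151 to 919 CPM in TRAP libraries and 1248 to 2736 CPM in total-RNA libraries. Astrocyte markers summed to 318 to 1286 CPM in TRAP and 6961 to 8996 CPM in total-RNA. The summed interneuron markers had 1840 to 1938 CPM in Control_TRAP and 841 to 905 CPM in Control_total-RNA. TRAP was thus depleted of glial transcripts, but it was not enriched for Camk2a and was lower in most excitatory-neuron markers.

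Mice 8 and 10 stood apart from their groups. The TRAP libraries of mouse 8 (EtOH) and mouse 10 (EtOH + ABT-888) had a Pearson's r of 0.976 of log2 CPM with each other across genes, against 0.952 to 0.969 for mouse 8 and 0.920 to 0.952 for mouse 10 with the other libraries of their own groups. In total-RNA they had an r of 0.988 with each other, again above any value with their own groups. Results that rest on these mice are given with and without them.

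On mm10, with gene models of GENCODE M21, Nampt lies on chromosome 12 (32819545 to 32853349, + strand), Nmnat2 on chromosome 1 (152954993 to 153119261, + strand), Nmnat3 on chromosome 9 (98287435 to 98420438, + strand) and Sarm1 on chromosome 11 (78472330 to 78497754, - strand). Sirt1 (63319005 to 63381704) and Sirt6 (81621785 to 81627797) are on the - strand of chromosome 10, and Sirt7 is on the - strand of chromosome 11 (120618372 to 120625240). Sirt2 (28766735 to 28788661, + strand) and Sirt3 (140863666 to 140882309, - strand) are on chromosome 7, and Sirt5 is on chromosome 13 (43365496 to 43395203, + strand). All are protein-coding, and counts were taken over exons. The strand setting of the counting is not given in the sources used here, so reads from exonic bases shared with a neighbour cannot be assigned with certainty. Sirt3 shares 760 exonic bases with Ric8a and Psmd13 on the opposite strand, Sirt7 shares 178 with Mafg and Mir6936 on the same strand, Sirt1 shares 65 with the antisense gene Gm16145, and Sirt2 shares 42 with Nfkbib on the opposite strand. The other members share none.

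Levels were ordered within Control as CPM per kb of exon. The length used was that of all annotated exons of a gene merged, whichever transcript was expressed. The order between genes therefore depends on the annotation as well. Nmnat2 was the highest, at 36.4 ± 0.768 CPM per kb in TRAP and 47.6 ± 1.02 in total-RNA (SD, n = 3). Sirt2 followed at 11.2 ± 2.09 and 18.5 ± 1.43, Nampt at 8.83 ± 0.647 and 12.3 ± 1.20, and Sirt3 at 5.81 ± 0.544 and 4.70 ± 0.0911. Each of these stood above the next without overlap between libraries in both pools. Below them the order was less certain. In TRAP the libraries overlapped between Sarm1 (3.65 ± 0.320) and Sirt6 (3.60 ± 0.670), between Sirt1 (2.41 ± 0.159) and Sirt7 (2.11 ± 0.207), and between Nmnat3 (1.36 ± 0.223) and Sirt5 (1.05 ± 0.163). In total-RNA only Sirt1 (2.22 ± 0.297) and Sirt6 (2.13 ± 0.337) overlapped, and Nmnat3 was the lowest at 0.436 ± 0.0286, below Sirt5 at 0.818 ± 0.173.

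**Figure D1:**
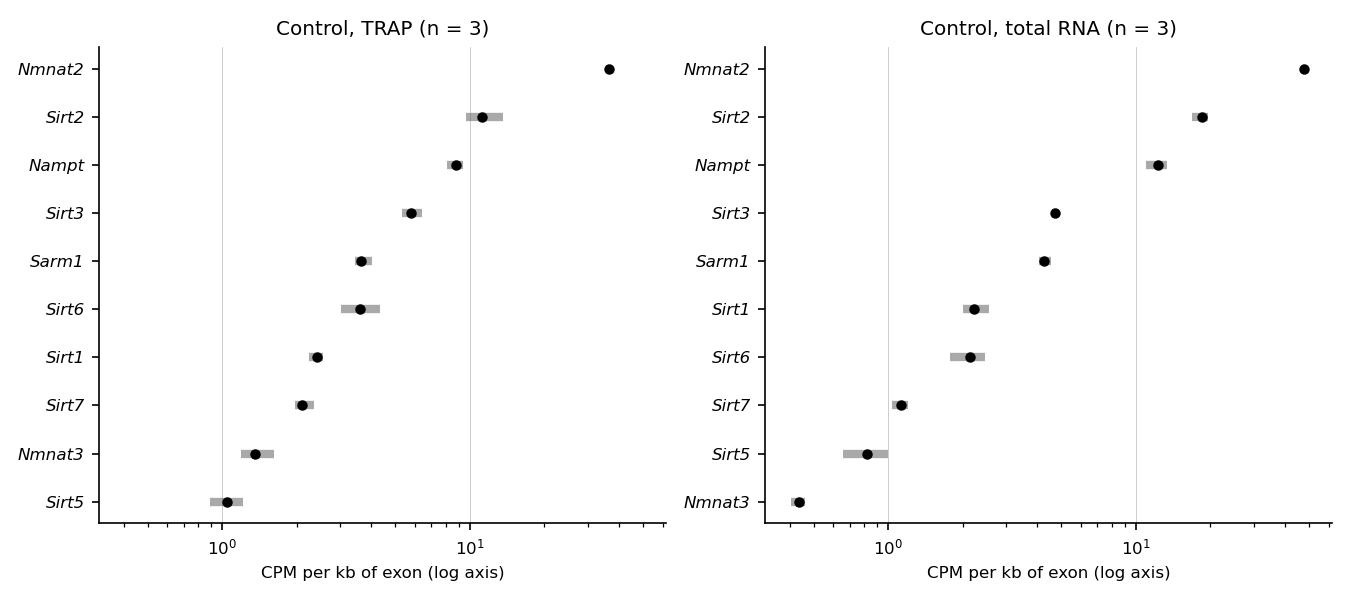
Level of each member in Control, as CPM per kb of exon on a log axis, in TRAP (left) and total-RNA (right); points are means and bars run from the lowest to the highest of 3 mice. Nmnat2 leads in both pools, and Nmnat3 is last in total-RNA but second to last in TRAP.

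The first question was how the ribosome-bound pool differs from the total pool. These tests took the TRAP and total-RNA libraries of a mouse as independent. In Control, 7 of the 10 members were called, 4 higher in TRAP (Sirt3, Sirt6, Sirt7, Nmnat3) and 3 lower (Sirt2, Nampt, Nmnat2). Of all genes tested, 59.9% were called in that comparison, 29.5% higher and 30.4% lower, so the share among the members was close to that of the transcriptome. In EtOH, 6 members were called (3 higher, 3 lower) against 50.7% of all genes (24.3% higher, 26.5% lower), and Sirt6 was no longer among them. In EtOH + ABT-888, 4 were called (2 higher, 2 lower) against 41.0% (19.5% higher, 21.5% lower). With the mouse as a block 6 were called in EtOH + ABT-888. The median log2 difference of the members was 0.19, -0.01 and 0.05 in the 3 treatments, and that of all genes 0.02, 0.03 and 0.05. The members therefore had no shared direction. In these bulk libraries, fewer cells of a type and less RNA per cell cannot be told apart.

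**Figure D2:**
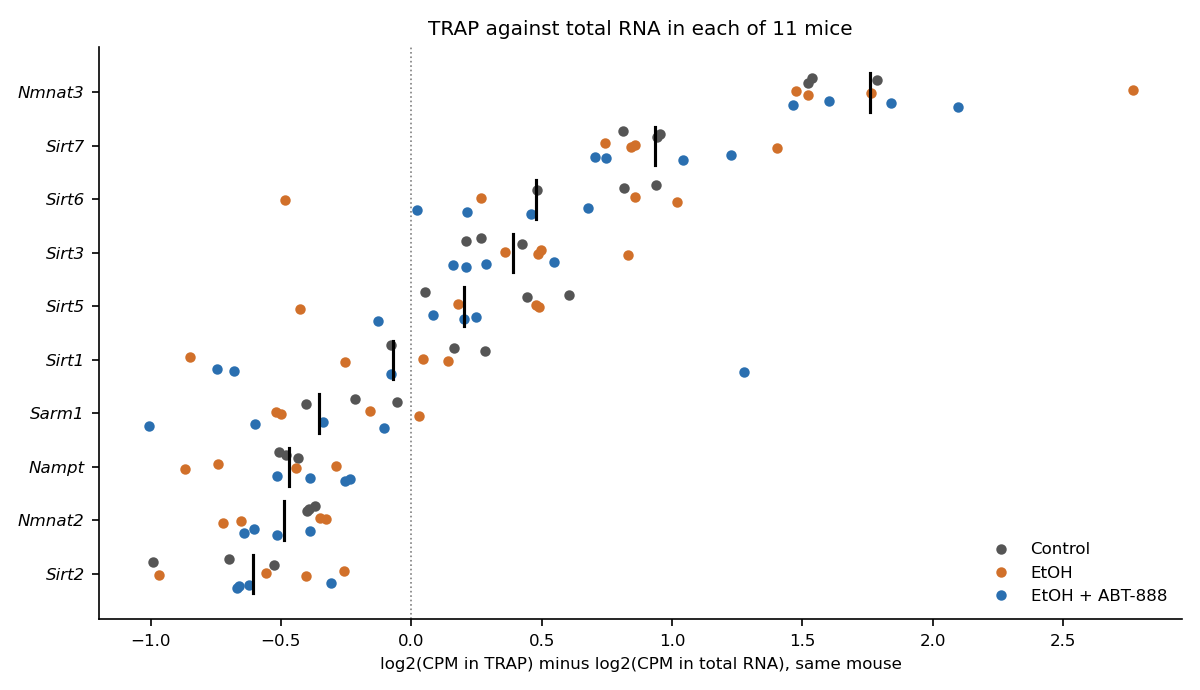
log2 CPM in TRAP minus log2 CPM in total-RNA of the same mouse, for each member; points are the 11 mice by treatment and vertical bars are means over the mice. All 11 mice lie above 0 for Nmnat3, Sirt7 and Sirt3 and below 0 for Sirt2, Nmnat2 and Nampt, and 1 TRAP library of Sirt1 (mouse 6) lies far to the right.

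Among the enzymes of NAD synthesis, Nmnat3, the mitochondrial member of its family, showed the largest difference between pools of the 10. In Control_TRAP its levels were 6.40, 8.09 and 5.97 CPM, in EtOH_TRAP 6.48, 15.2, 5.41 and 9.45 CPM, and in EtOH + ABT-888_TRAP 9.10, 7.81, 8.07 and 6.98 CPM. In total-RNA the same mice had 2.20, 2.31 and 2.03 CPM (Control), 2.23, 4.44, 1.91 and 1.35 CPM (EtOH) and 2.10, 2.80, 2.22 and 2.27 CPM (EtOH + ABT-888). No TRAP library fell within the range of total-RNA. Mouse 5, an EtOH mouse, was the highest in both pools. The log2 difference was 1.63 ± 0.23 (SE) in Control (adjusted p = 8.33e-05, edgeR), 1.85 ± 0.42 in EtOH (adjusted p = 0.00315) and 1.77 ± 0.27 in EtOH + ABT-888 (adjusted p = 0.000347), and it was called under each alternative run.

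Nmnat2, the form carried into axons and by far the more abundant of the pair, went the other way. Control_TRAP libraries had 206, 215 and 210.5 CPM and Control_total-RNA libraries 272, 282 and 272 CPM. EtOH_TRAP libraries had 193, 186, 240 and 218 CPM against 319, 292, 301 and 278 CPM in total-RNA, and EtOH + ABT-888_TRAP libraries had 174, 176, 234 and 182 CPM against 248, 275, 306 and 277 CPM. Every TRAP library lay below every total-RNA library of its treatment. The log2 difference was -0.40 ± 0.08 (SE; adjusted p = 0.000831, edgeR), -0.53 ± 0.12 (0.00378) and -0.53 ± 0.14 (0.0102). Because both genes are counted in the same library, their ratio needs no scaling between libraries: for each 1000 counts of Nmnat2 there were 28.4 to 37.7 counts of Nmnat3 in Control_TRAP and 7.47 to 8.21 in Control_total-RNA. In EtOH the ratio was 22.6 to 81.7 against 4.86 to 15.2, and in EtOH + ABT-888 it was 34.5 to 52.5 against 7.26 to 10.2.

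Nampt, the rate-limiting salvage enzyme, was lower in TRAP in 11 of 11 mice. It had 41.0, 45.5 and 47.3 CPM in Control_TRAP against 55.4, 63.5 and 67.3 CPM in total-RNA, and the log2 difference was -0.49 ± 0.11 (SE; adjusted p = 0.00188, edgeR). In EtOH it had 39.4, 60.8, 67.5 and 44.0 CPM in TRAP and 72.1, 82.7, 82.5 and 73.5 CPM in total-RNA (log2 difference -0.57 ± 0.17, adjusted p = 0.0169). In EtOH + ABT-888 it had 46.0, 56.6, 71.5 and 51.7 CPM and 54.8, 66.6, 93.7 and 73.9 CPM, groups that overlap, and a log2 difference of -0.36 ± 0.20 that was not called (adjusted p = 0.172) but was with the mouse as a block (adjusted p = 0.0195). The call in Control was lost in a single fit over all 22 libraries (adjusted p = 0.0612), and that in EtOH without the total-RNA library of mouse 5 (adjusted p = 0.0570) or mouse 8 (0.0615).

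Of the nuclear sirtuins, Sirt7, which acts in the nucleolus, was higher in TRAP in 11 of 11 mice. Its TRAP levels were 10.4, 12.1 and 10.1 CPM in Control, 19.9, 18.7, 13.3 and 12.3 CPM in EtOH and 12.2, 15.01, 14.98 and 17.5 CPM in EtOH + ABT-888. In total-RNA it had 5.36, 6.22 and 5.74 CPM, then 7.48, 10.4, 7.33 and 7.33 CPM, then 5.91, 8.93, 9.19 and 7.45 CPM. The pools did not overlap in any treatment, and the log2 difference was 0.89 ± 0.17 (SE; adjusted p = 0.000701, edgeR), 0.96 ± 0.22 (0.00346) and 0.92 ± 0.23 (0.00671). Sirt6, a chromatin deacylase, was higher in TRAP in Control, with 8.43, 12.1 and 9.56 CPM against 6.02, 6.84 and 4.96 CPM (log2 difference 0.75 ± 0.20, adjusted p = 0.00675). Over all treatments Sirt6 was higher in TRAP in 10 of 11 mice. In EtOH and EtOH + ABT-888 its libraries overlapped between the pools, and log2 differences of 0.41 ± 0.29 and 0.36 ± 0.31 were not called (adjusted p = 0.252 and 0.380). Whether the Sirt6 difference is smaller in EtOH than in Control is what the interaction tests, and it gave -0.33 ± 0.40 (adjusted p = 1.00).

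Sirt1, the sirtuin with the widest known set of nuclear targets, did not differ between the pools (log2 differences of 0.10, -0.19 and 0.01, intervals of 95% from -0.72 to 0.74 over the 3 treatments, none called). In EtOH + ABT-888_TRAP its level was 25.5 CPM in mouse 6 and 9.41 to 11.4 CPM in the other 3 mice. That library was the smallest of the 22, with 6570957 counted reads. Without it the log2 difference was -0.42 and still not called.

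Sirt2, a cytosolic deacetylase known to be abundant in myelin-forming cells, was lower in TRAP in 11 of 11 mice. Its levels were 68.3, 48.4 and 52.3 CPM in Control_TRAP and 98.3, 96.2 and 84.9 CPM in Control_total-RNA, 84.3, 58.7, 76.3 and 79.7 CPM against 111, 115, 112 and 95.4 CPM in EtOH, and 66.1, 56.0, 81.2 and 87.0 CPM against 105, 88.5, 125 and 108 CPM in EtOH + ABT-888. The pools overlapped in none of the treatments. Log2 differences were -0.75 ± 0.13 (SE; adjusted p = 0.000449, edgeR), -0.56 ± 0.14 (0.00602) and -0.55 ± 0.17 (0.0240). The last call was lost without the TRAP library of mouse 3 (adjusted p = 0.0518) or mouse 6 (0.0588), or the total-RNA library of mouse 10 (0.0655) or mouse 11 (0.0583). Beside this, the 10 oligodendrocyte markers had a median log2 difference of -3.11 in Control, -3.27 in EtOH and -2.52 in EtOH + ABT-888, all 10 called lower each time. Their part in the Sirt2 difference was not tested.

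Of the mitochondrial sirtuins, Sirt3, the main mitochondrial deacetylase, was higher in TRAP in 11 of 11 mice. Its levels were 31.8 to 38.2 CPM in Control_TRAP against 27.5 to 28.5 CPM in total-RNA, 33.0 to 39.9 against 22.4 to 26.6 CPM in EtOH, and 30.3 to 41.7 against 27.1 to 29.3 CPM in EtOH + ABT-888. The log2 difference of 0.53 ± 0.14 (SE) in EtOH was called (adjusted p = 0.00751, edgeR) and that of 0.31 ± 0.16 in EtOH + ABT-888 was not (adjusted p = 0.131), although a single fit over all 22 libraries called it (0.0297). In Control the difference was 0.28 ± 0.11 (adjusted p = 0.0371), and it missed the threshold in DESeq2 (0.0557), without the filter on low counts (0.100), in a single fit over all libraries (0.0760) and without any of 5 of the 6 libraries (adjusted p up to 0.122). Sirt5, a desuccinylase, had 4.00 to 7.42 CPM in TRAP and 3.58 to 6.09 CPM in total-RNA over all mice, was higher in TRAP in 9 of 11 mice and was called in no treatment.

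Sarm1, the NAD-cleaving enzyme of axons, was lower in TRAP in 10 of 11 mice without being called. It had 19.3, 22.6 and 19.7 CPM in Control_TRAP against 25.6, 23.4 and 22.9 CPM in total-RNA, without overlap (log2 difference -0.24 ± 0.12, adjusted p = 0.108, edgeR). In EtOH it had 21.6, 16.2, 9.39 and 19.9 CPM in TRAP and 21.2, 22.9, 13.5 and 22.2 CPM in total-RNA (-0.27 ± 0.26, adjusted p = 0.406), a difference that was -0.062 without the TRAP library of mouse 8. In EtOH + ABT-888 it had 27.9, 15.3, 10.7 and 18.1 CPM and 30.0, 30.8, 16.3 and 22.96 CPM (-0.47 ± 0.30, adjusted p = 0.229). With the mouse as a block the last of these was called (-0.50, adjusted p = 0.0283), and it was called without the TRAP library of mouse 3 as well (-0.77, adjusted p = 0.0455).

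**Figure D3:**
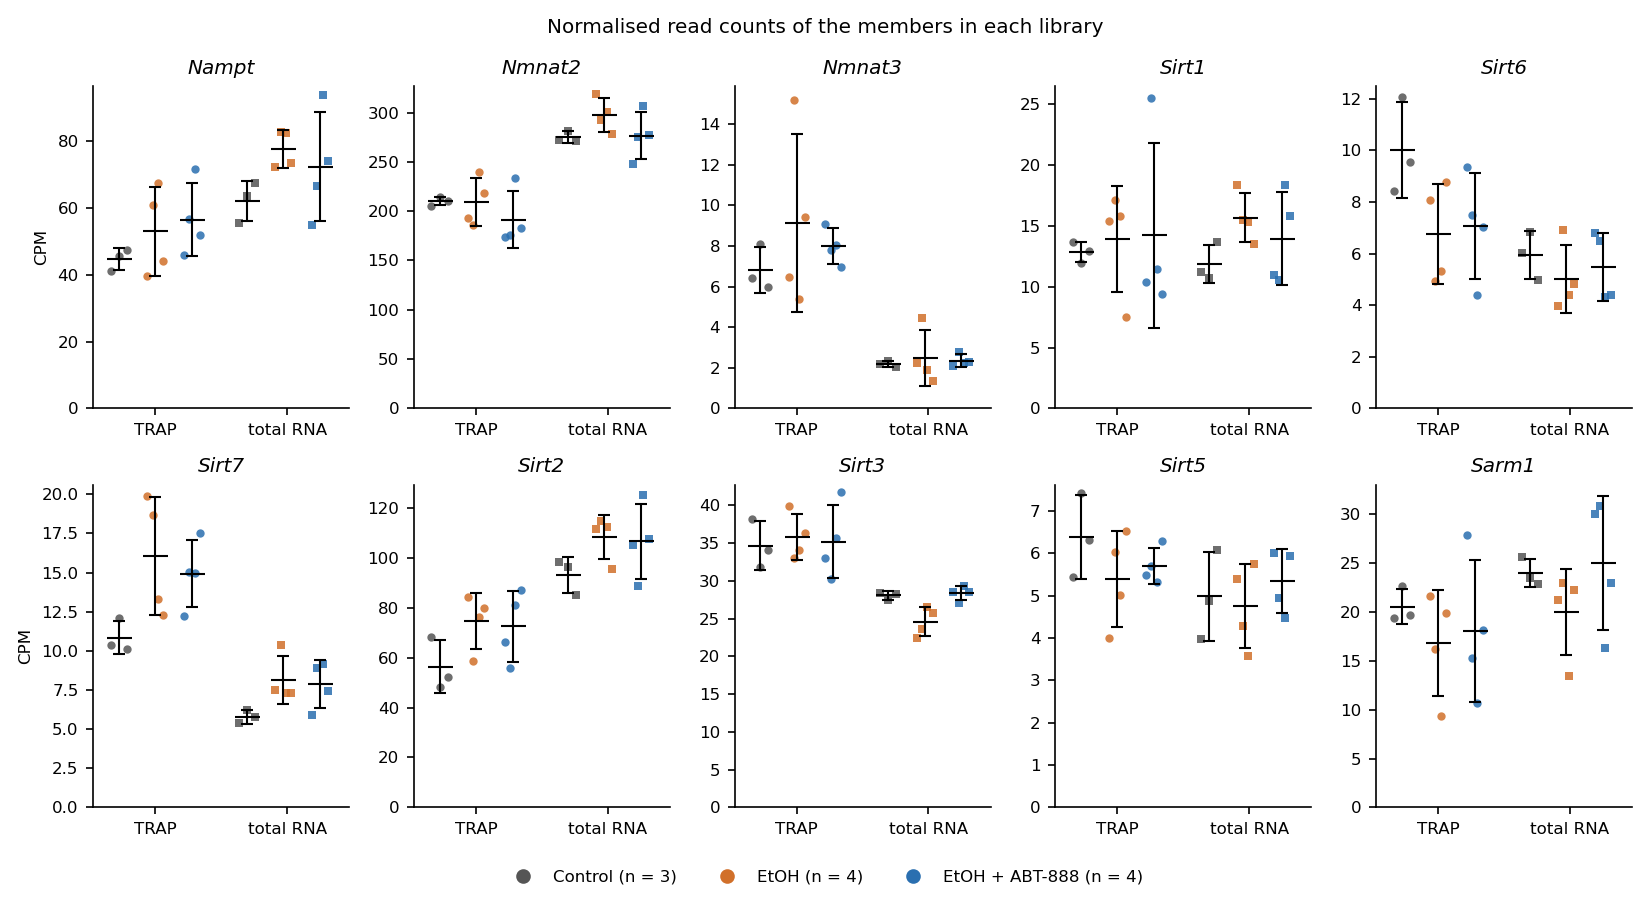
CPM of each member in every library, on linear axes from 0, with TRAP libraries as circles and total-RNA libraries as squares; colours are the treatments, and black bars are mean ± SD (n = 3, 4 and 4). The pools do not overlap for Nmnat3, Nmnat2 and Sirt3, while treatments overlap within a pool for most members; the lowest Sarm1 values are those of mice 8 and 10.

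The second question was whether ethanol, alone or with ABT-888, moved these transcripts within a pool. No member was called by edgeR's quasi-likelihood test in any of the 6 comparisons between treatments. In EtOH_TRAP against Control_TRAP, 5.24% of all genes were called and 0 of 10 members by edgeR's quasi-likelihood test, DESeq2 or exactTest, while 2 members had an unadjusted p under 0.05, against 23.1% of all genes. In EtOH + ABT-888_TRAP against Control_TRAP, 0.476% of all genes were called and 0 members by any of the 3 tools, with 0 members and 12.1% of all genes at an unadjusted p under 0.05. In EtOH_total-RNA against Control_total-RNA, 17.6% of all genes were called and 0 members in edgeR's quasi-likelihood test, 2 in DESeq2 (Sirt7, Nampt) and 1 in exactTest (Nampt), with 3 members and 33.9% of all genes at an unadjusted p under 0.05. In EtOH + ABT-888_total-RNA against Control_total-RNA the shares were 0.263% called and 15.9% at an unadjusted p under 0.05, with 0 members called by any tool and 1 (Sirt7) at an unadjusted p under 0.05. In edgeR's quasi-likelihood test the members' shares were at or below those of the transcriptome throughout. The EtOH and EtOH + ABT-888 comparisons use the same Control libraries.

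**Figure D4:**
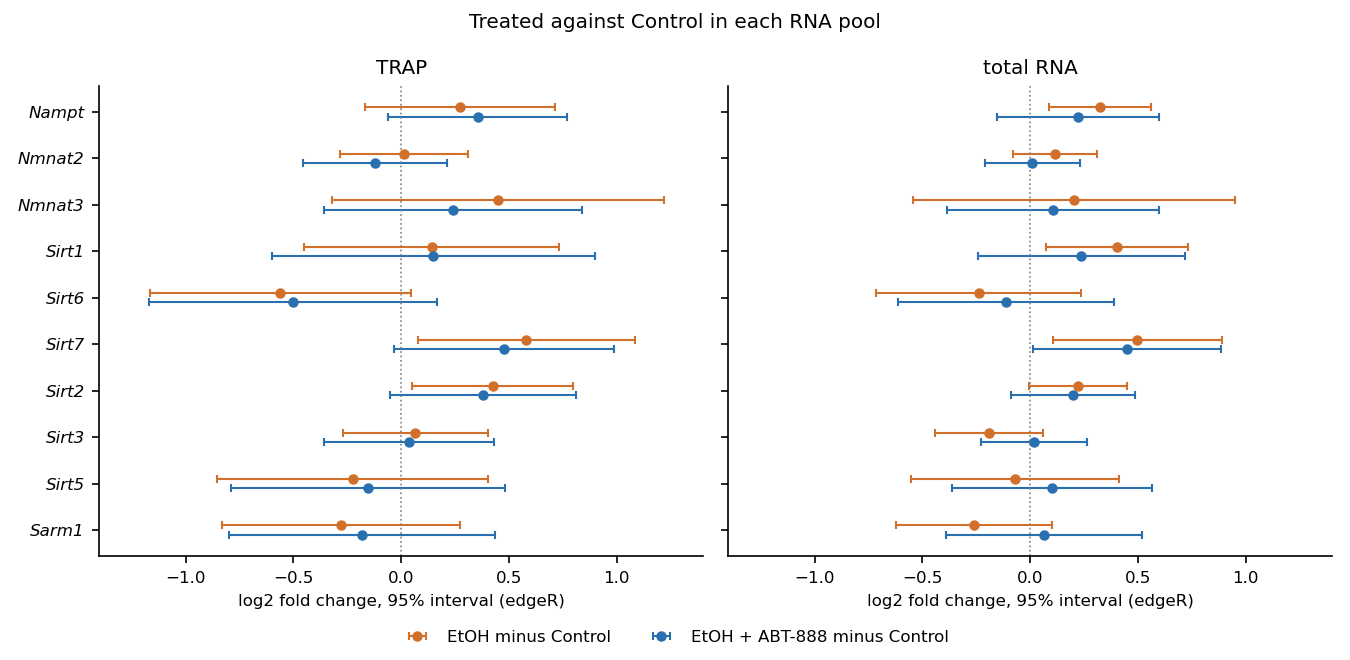
log2 fold change of each member against Control within TRAP (left) and within total-RNA (right), for EtOH and for EtOH + ABT-888. The 95% intervals were computed from edgeR's F statistics. No member was called by edgeR's quasi-likelihood test; the intervals of Sirt7 exclude 0 in 3 of the 4 comparisons before adjustment, and those of Nmnat2 are the narrowest in TRAP.

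Sirt7 came nearest to a shared shift. All 4 EtOH_TRAP and all 4 EtOH + ABT-888_TRAP libraries lay above the 3 Control_TRAP libraries, as the values above show, and it was the 1 member without overlap in each of these comparisons, against 22.3% and 14% of all genes. The log2 difference from Control was 0.58 (95% interval 0.08 to 1.08) in EtOH_TRAP (adjusted p = 0.161, edgeR) and 0.47 (-0.04 to 0.98) in EtOH + ABT-888_TRAP (adjusted p = 0.451). In total-RNA it was 0.50 (0.11 to 0.89, adjusted p = 0.0746) and 0.45 (0.01 to 0.88, adjusted p = 0.296). The call by DESeq2 in EtOH_total-RNA stood just inside the threshold (adjusted p = 0.0484).

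Nampt in total-RNA was the other near result. EtOH libraries (72.1 to 82.7 CPM) lay above Control libraries (55.4 to 67.3 CPM), with a log2 difference of 0.33 (95% interval 0.09 to 0.56, adjusted p = 0.0563, edgeR). It passed in DESeq2 (adjusted p = 0.0303), in exactTest (0.0425) and without the EtOH_total-RNA library of mouse 9 (0.0378), and without mice 8 and 10 it was 0.29 (adjusted p = 0.0984). Sirt3 also did not overlap in this comparison, with lower levels in EtOH, and with Sirt7 that makes 3 of 10 members against 30.5% of all genes. In TRAP the Nampt difference was 0.27 ± 0.20 in EtOH and 0.36 ± 0.19 in EtOH + ABT-888 (adjusted p = 0.455 and 0.490), falling to 0.13 and 0.22 without mice 8 and 10. In EtOH + ABT-888_total-RNA no member was without overlap, against 16.9% of all genes.

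Sirt1 in EtOH_total-RNA had 18.3, 15.5, 15.3 and 13.5 CPM against 11.2, 10.7 and 13.6 CPM in Control, groups that overlap by 1 library. The log2 difference of 0.40 (95% interval 0.07 to 0.73) was not called (adjusted p = 0.0832, edgeR) and passed without the EtOH_total-RNA library of mouse 9 (adjusted p = 0.0405). Sirt2 in EtOH_TRAP was 0.43 above Control on the log2 scale (95% interval 0.05 to 0.80, adjusted p = 0.166), with 58.7 to 84.3 CPM against 48.4 to 68.3 CPM. Oligodendrocyte markers summed to 155 to 456 CPM in EtOH_TRAP and 178 to 297 CPM in Control_TRAP, and their part in that value was not tested. Sirt6 was 0.56 ± 0.28 lower in EtOH_TRAP and 0.50 ± 0.31 lower in EtOH + ABT-888_TRAP, neither called (adjusted p = 0.248 and 0.540), and the latter was 0.32 lower without mice 8 and 10.

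For the remaining members the data bound the change without showing one. In TRAP the 95% interval for EtOH against Control was -0.28 to 0.31 for Nmnat2, -0.27 to 0.40 for Sirt3, -0.85 to 0.40 for Sirt5, -0.32 to 1.22 for Nmnat3 and -0.83 to 0.27 for Sarm1, all on the log2 scale. The Sarm1 difference of -0.28 was -0.086 without mice 8 and 10, and in EtOH_total-RNA it went from -0.26 to -0.12 without them. The Nmnat3 difference of 0.45 was 0.063 without the EtOH_TRAP library of mouse 5. Nmnat2, the best counted, was the most tightly bounded member in EtOH_TRAP, and Nmnat3 the least. Of the 8 excitatory-neuron markers, 1 was called lower in EtOH_TRAP (Neurod6, -1.68), where 5.24% of all genes were called. In EtOH + ABT-888_TRAP 2 were called lower, among them Neurod6 (-1.73), where 0.476% of all genes were called. The list medians were -0.68 and -0.70 against Control_TRAP. In EtOH_total-RNA, where 17.6% of all genes were called, 1 of the 8 was called higher and 3 lower. Of 10 oligodendrocyte markers, 2 were called higher and 2 lower there. Microglial markers summed to 268 to 278 CPM in Control_total-RNA and to 105 to 170 CPM in EtOH_total-RNA, with 5 of 7 called lower. Not all of them fell. C1qa and C1qb had means of 20.7 and 27.2 CPM in Control_total-RNA and 21.7 and 26.9 CPM in EtOH_total-RNA. Of 8 endothelial and mural markers, 4 were also called lower in EtOH_total-RNA. The part of these markers in the members' values was not tested.

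ABT-888 given with ethanol was compared with ethanol alone. In TRAP 0 of 10 members were called against 0% of all genes, and 0 members had an unadjusted p under 0.05 against 0.966% of all genes. In total-RNA the counts were again 0 of 10 against 0%, and 0 against 1.91%, and DESeq2 and exactTest called none of the members in either pool. Member log2 differences lay between -0.21 and 0.10 in TRAP, with 95% intervals reaching from -0.94 to 0.79, and in total-RNA the intervals reached from -0.82 to 0.80. Sirt3 in total-RNA was the only member whose groups did not overlap, against 1.36% of all genes, with 27.1 to 29.3 CPM in EtOH + ABT-888 and 22.4 to 26.6 CPM in EtOH, and a log2 difference of 0.21 (95% interval -0.05 to 0.47, adjusted p = 1.00, edgeR).

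The interaction asked whether EtOH changed the TRAP to total-RNA ratio. It was called for 0 of 10 members and for 0.0213% of all genes, and 0 members and 4.87% of all genes had an unadjusted p under 0.05. DESeq2, the likelihood ratio test and the fit with the mouse as a block also called 0 members. In edgeR's quasi-likelihood test the value largest in size was that of Sirt6, given above, and the members' median was -0.05. Without mice 8 and 10, Nmnat3 (0.34), Sirt3 (0.33) and Sirt1 (-0.33) exceeded Sirt6 (-0.26) in size.

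The TRAP and total-RNA libraries of a mouse were set against each other. Over the 11 mice, log2 CPM in TRAP and in total-RNA had a Pearson's r of 0.76 for Sarm1 (permutation p = 0.00849, adjusted over 10 members 0.0320) but a Spearman's rho of 0.35 (permutation p = 0.284, adjusted 0.408). Without mice 8 and 10, which are also the 2 farthest from the median in total-RNA, r was 0.05. The relation rests on these 2 mice. Deviations from the treatment means had an r of 0.79 with them included. Mouse 8 (EtOH) and mouse 10 (EtOH + ABT-888) had the lowest Sarm1 in both pools, 9.39 and 10.7 CPM in TRAP and 13.5 and 16.3 CPM in total-RNA, against 15.3 to 27.9 CPM and 21.2 to 30.8 CPM in the other 9.

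Sirt7 gave a more even relation between the pools. Its r was 0.76 (permutation p = 0.00682, adjusted 0.0320) and its rho 0.86 (permutation p = 0.00107, adjusted 0.0107), with r = 0.62 without mice 1 and 5, the 2 farthest from the median, and 0.53 for deviations from the treatment means. For Nampt r was 0.74 (permutation p = 0.00961, adjusted 0.0320) and rho 0.65 (permutation p = 0.0374, adjusted 0.187), with r = 0.74 without the 2 farthest mice and 0.77 for deviations from the treatment means, but 0.48 without mice 8 and 10. For the other 7 members r lay between -0.13 and 0.61, with adjusted p of 0.124 or more. The points pool 3 treatments, and the 2 libraries of a mouse share its tissue.

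**Figure D5:**
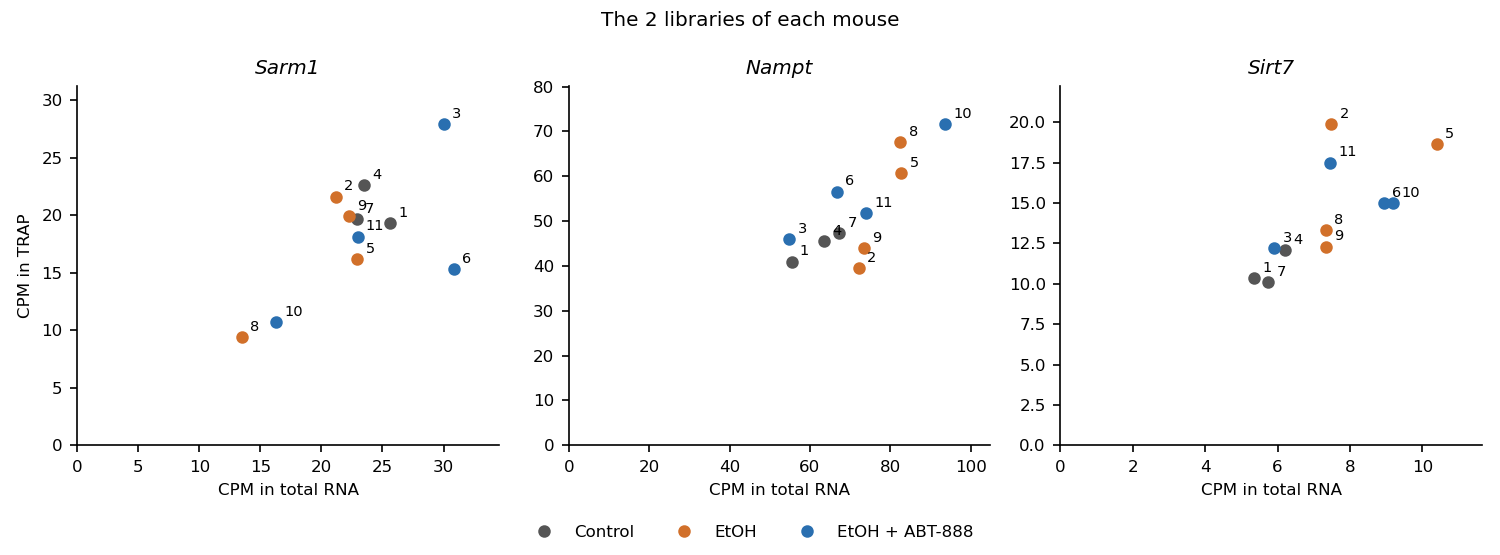
CPM in TRAP against CPM in total-RNA for Sarm1, Nampt and Sirt7, with 1 point per mouse, labelled with its number and coloured by treatment; axes start at 0. For Sarm1, mice 8 and 10 lie apart at the lower left and the other 9 show no trend, whereas Sirt7 rises across the mice.

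The genes whose level over the 22 libraries was most like that of a member were read as a description, since all values share the difference between pools. Nmnat3 was close to Daxx (r = 0.96) and Kif17 (0.96). Sirt7 was closest to Maf1, Itm2c and Frat1 (each 0.95) and, among the members, to Nmnat3 (0.86). Nmnat2 was closest to Gtdc1, Rab6a and Fam155a (each 0.95) and, among the members, to Sirt2 (0.78). Sirt2 was closest to Etnppl (0.94), Dnm2 (0.92) and Ceacam1 (0.92), Sirt3 to Ndufa2 (0.94), Polr2f (0.93) and H2afj (0.92), and Nampt to Zfp871 (0.94), Pcf11 (0.93) and Hmgb1 (0.93). Sirt6 was closest to Eepd1 (0.91), and Sarm1 had an r of at most 0.35 with any other member. Sirt1 (Exosc9, 0.80) and Sirt5 (Atg12, 0.76) had the weakest nearest neighbours.

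Of 58 other genes in 5 lists around NAD, 46 passed the filter on low counts. Most losses were in NAD synthesis, where only Nmnat1, Nmrk1, Ido1 and Ido2 of 14 enzymes were tested, and the other 10 had fewer than 500 counts (Qprt 82 and Naprt 477 in all 22 libraries together). Ido1, which opens the kynurenine route from tryptophan to NAD, was higher in TRAP in all treatments, with 45.0 ± 6.80 CPM in Control_TRAP against 5.59 ± 0.466 in Control_total-RNA (SD, n = 3; log2 difference 2.99 ± 0.15 SE, adjusted p = 9.33e-08, edgeR), 2.69 ± 0.26 in EtOH and 3.00 ± 0.28 in EtOH + ABT-888. Of 13 tested genes of NAD use and handling, 4 were higher and 4 lower in Control_TRAP, close to the shares of all genes (29.5% and 30.4%). The higher ones included Nt5e (1.61 ± 0.17) and the lower ones Cd38, an NAD glycohydrolase (-2.42 ± 0.32), and Nadk2, the mitochondrial NAD kinase (-1.08 ± 0.10).

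Of 14 genes listed as sirtuin substrates, 3 were higher and 7 lower in Control_TRAP, against 29.5% higher and 30.4% lower among all genes. Their median log2 difference was -0.26. Whether sirtuins act on the product of Tubb4a, a β-tubulin gene in that list, was not checked. Foxo1, a transcription factor deacetylated by SIRT1, was higher by 1.93 ± 0.12 (SE; adjusted p = 3.55e-07, edgeR), whereas Idh2, the mitochondrial isocitrate dehydrogenase deacetylated by SIRT3, was lower by 1.58 ± 0.19 (adjusted p = 2.73e-05). Of 6 regulators of SIRT1 activity and of Nampt transcription, 3 were higher and 2 lower, and of 9 genes of axon degeneration, 2 were higher and 4 lower. Both differences between the pools, for Foxo1 and Idh2, were called in EtOH and EtOH + ABT-888 too.

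In EtOH_TRAP against Control_TRAP, 3 of the 46 tested list genes were called, all higher, a share close to the 5.24% of all genes. Nt5e, an ectoenzyme that can dephosphorylate nicotinamide mononucleotide outside the cell, had 93.9 ± 20.7 CPM (n = 4) against 42.4 ± 8.37 in Control_TRAP (n = 3), a log2 difference of 1.17 ± 0.21 (SE; adjusted p = 0.0122, edgeR) that was lost without Control mouse 1 (adjusted p = 0.0676) or mouse 4 (0.0834). It was called higher in EtOH_total-RNA as well, at 27.1 ± 6.92 against 13.7 ± 2.31 CPM (0.98 ± 0.19, adjusted p = 0.00572), under each of 13 alternatives. Parp3 had 12.9 ± 0.999 CPM in EtOH_TRAP against 6.11 ± 1.78 (1.10 ± 0.25, adjusted p = 0.0293), and Usp22, a deubiquitinase that stabilises SIRT1, had 453 ± 65.3 against 309 ± 19.04 CPM (0.57 ± 0.15, adjusted p = 0.0481). Parp3 lost its call without any 1 of the 3 Control libraries (adjusted p of 0.0600 to 0.148) and Usp22 without any of those or of the EtOH libraries of mice 5 and 8 (0.0805 to 0.215). Usp22 was also not called in a single fit over all 22 libraries (adjusted p = 0.0942) or without mice 8 and 10, and was called in 6 of 13 alternatives.

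In EtOH_total-RNA 5 of 13 genes of NAD use and handling were called, 3 higher (Nt5e, Cd38, Slc25a51) and 2 lower (Nadk, Parp1). Of the 14 genes listed as substrates, 5 were called (Foxo1 and Foxo3 higher, Acss1, Acss2 and Tubb4a lower). Of 9 genes of axon degeneration, 1 was called (Mapk10, lower). With 0 of 4 other enzymes of NAD synthesis and 0 of 6 regulators, that made 11 of the 46 tested list genes, against 17.6% of all genes. Cd38 had 7.48 ± 2.12 CPM against 4.32 ± 0.292 in Control (log2 difference 0.79 ± 0.23 SE, adjusted p = 0.0320, edgeR), and Slc25a51, the mitochondrial NAD carrier, rose by 0.52 ± 0.13 (adjusted p = 0.0167). Parp1, a target of ABT-888, had 54.9 ± 10.7 CPM against 76.8 ± 6.10 (-0.48 ± 0.14, adjusted p = 0.0356). Each of these 11 calls other than that of Nt5e was lost without the Control_total-RNA library of mouse 1 (adjusted p of 0.0757 to 0.212) or of mouse 4 (0.0609 to 0.115), as well as in the model fitted to all 22 libraries together, where Parp1 had an adjusted p of 0.607. Over 13 alternatives, Tubb4a was called in 10, Slc25a51 in 9 and the other 8 genes in 5 to 7. None of the genes in the 5 lists was called in EtOH + ABT-888 against Control or against EtOH in either pool, and none in the interaction.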

How the data were processed

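The authors aligned paired-end reads from rRNA-depleted libraries to mm10 with STAR and deposited raw counts per Ensembl gene from featureCounts, in whole reads. Versions and the treatment of multi-mapping reads are not given in the sources used here. The table holds 39056 genes in 22 libraries, of which 38872 were found in GENCODE M21 and 184 were not. The tests were run with edgeR 4.0.16 under R 4.3.3 (TMM, quasi-likelihood test on the libraries of the groups compared, interaction over all 22) and DESeq2 1.42.0; log2 CPM used a prior count of 1. The fits were tested on simulated data, with changes planted in genes above the median level. The planted changes were larger than any treatment difference of a member. Those data therefore do not show whether differences as small as the members' would be found. The labels give the animal of each library, so TRAP and total-RNA libraries are paired; deviations of paired libraries from their group means had r between 0.102 and 0.622. The 11 mice are separate animals. Correlations over mice used 100000 permutations. Named genes are the 10 members, genes of 5 lists and 7 marker lists, and the 3 most similar protein-coding genes per member, some of which are not reported here. Members and lists were chosen with earlier results of these data known. Alternatives were DESeq2, exactTest or the likelihood ratio test, RLE factors, no low-count filter, a single fit, the mouse as a block, leaving out each library and, added after seeing the data, leaving out mice 8 and 10. No file was left out.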

Additional observations from a re-analysis of the deposited data

Results flagged for a closer look

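Of 40 sets of 4 libraries (10 members in the 4 treated groups), 5 held a library far from the other 3 on the log2 CPM scale by Dixon's criterion, where chance gives about 1 in 20. Sirt1 had 7.48 CPM in the EtOH_TRAP library of mouse 9, below the others. Sirt2 had 95.4 CPM in the EtOH_total-RNA library of the same mouse, also the lowest. Sirt7 had 10.4 CPM in the EtOH_total-RNA library of mouse 5, above the others. Nmnat2 had 234 CPM in the EtOH + ABT-888_TRAP library of mouse 10, above the others. Sarm1 had 13.5 CPM in the EtOH_total-RNA library of mouse 8, below the others.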

How the results depend on the processing

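Each of 100 member results (10 members in 10 comparisons) was recomputed under alternatives, giving 1500 values, of which 63 changed sign over 27 results, none of them called. A call was lost in 15 values and gained in 9. In EtOH_total-RNA against Control_total-RNA the number of members called went from 0 to 2 in DESeq2 and 1 in exactTest, and from 0 to 2 when single libraries were left out, the 2 without mouse 9. In the other treatment comparisons and the interaction it was 0 under every alternative run. With the mouse as a replicate block, the members called between pools in EtOH + ABT-888 rose from 4 to 6 with Nampt (-0.35) and Sarm1 (-0.50), and the block changed no other member call. In a single fit over all libraries, Nampt and Sirt3 in Control lost their calls (adjusted p = 0.0612 and 0.0760) and Sirt3 in EtOH + ABT-888 gained one (adjusted p = 0.0297). Leaving out mice 8 and 10 was chosen after seeing the data. The cause of these changes was not tested.

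The number of all genes called varied widely between settings. Against Control it was 737 in EtOH_TRAP, with 565 to 1491 under the other settings and 84 to 1550 with single libraries left out. It was 67 in EtOH + ABT-888_TRAP (67 to 454, and 0 to 373), 2482 in EtOH_total-RNA (151 to 3436, and 878 to 3616) and 37 in EtOH + ABT-888_total-RNA (32 to 621, and 0 to 870). In EtOH + ABT-888_total-RNA against EtOH_total-RNA it was 0, and 2 in DESeq2 and in exactTest. In the interaction it was 3, with 1 to 16 under the other settings (14 with the mouse as a block, 1 to 6 with single libraries left out).

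Small log2 differences changed sign. Between pools in EtOH + ABT-888, Sirt1 was -0.0094 in DESeq2, -0.015 with RLE factors, -0.016 without the low-count filter and -0.078 with the mouse as a replicate block. Nmnat2 in EtOH_TRAP against Control was -0.0069 in a single fit and -0.066 without mice 8 and 10. Without those mice, Sarm1 in EtOH + ABT-888_TRAP against Control was 0.012, Sirt5 in EtOH_total-RNA against Control 0.041, Nmnat2 in EtOH + ABT-888_total-RNA against Control -0.045 and the Sarm1 interaction 0.046. With single libraries left out, Sirt1 between pools ranged from -0.30 to 0.014 in EtOH and -0.42 to 0.17 in EtOH + ABT-888. Against Control, Nmnat2 in EtOH_TRAP ranged from -0.066 to 0.058, and in EtOH + ABT-888_TRAP Sirt1 from -0.30 to 0.31, Sirt3 from -0.051 to 0.11 and Sarm1 from -0.46 to 0.012. In EtOH_total-RNA Sirt5 ranged from -0.20 to 0.10 and Nmnat3 from -0.24 to 0.40, and in EtOH + ABT-888_total-RNA Sirt5 from -0.036 to 0.27, Nmnat2 from -0.045 to 0.061 and Sarm1 from -0.054 to 0.22. In EtOH + ABT-888_TRAP against EtOH_TRAP, Sirt1 ranged from -0.44 to 0.18, Sirt2 from -0.14 to 0.050, Sirt3 from -0.12 to 0.023, Sirt5 from -0.057 to 0.18, Sirt6 from -0.094 to 0.24, Nampt from -0.052 to 0.23, Nmnat3 from -0.39 to 0.18 and Sarm1 from -0.18 to 0.28. In total-RNA the same comparison gave -0.11 to 0.056 for Sirt2, -0.13 to 0.092 for Sirt7, -0.25 to 0.0094 for Nampt and -0.29 to 0.35 for Nmnat3. The interaction ranged from -0.051 to 0.21 for Sirt7, -0.22 to 0.041 for Nampt, -0.14 to 0.67 for Nmnat3 and -0.18 to 0.17 for Sarm1. The lowest count of a member in a library was 30, for Nmnat3.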
